A study of Mus musculus with 10 samples.

Results

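The OAS family and OAS-like genes were taken as the rows of the deposited protein-coding expression table whose gene symbol was Oas1a, Oas1c, Oas1g, Oas2, Oas3, Oasl1 or Oasl2. These were 7 of the 16936 genes in the table. An eighth listed symbol, Oas1b, was not analysed here. The samples were macrophages grown from mouse bone marrow, all 10 cultured with 50 ng/mL GM-CSF, a growth factor, over 7 days. Of these, 5 were left untreated and 5 received PLG for 24 h, where PLG stands for human plasminogen in the design text of the series. The labels give no strain, sex or age of the mice and name no control preparation for PLG, so plasminogen cannot be told apart from anything else in the added material. The labels do not tie replicates to separate mice or separate cultures. The p-values therefore measure the spread between these samples alone, and this spread may be technical. Expression was given as FPKM (fragments scaled to gene length and to the size of the library), a unit that allows levels to be compared between genes.

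OAS enzymes are sensors of double-stranded RNA. On binding it they join ATP into short 2'-5'-linked chains of adenylate, called 2-5A, which act as a second messenger of the antiviral response. OAS genes are classical interferon-stimulated genes: interferon receptors signal through factors that include Stat2 and Irf9 to an element in their promoters known as the interferon-stimulated response element. The OAS-like proteins carry ubiquitin-like domains behind an OAS domain and need not make 2-5A.

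RefSeq start sites on GRCm38.p6 were available for 6 of the 7 genes, all except Oas2. Of these, 4 held the core of the interferon-stimulated response element, searched as GAAA, any 2 bases and GAAA on either strand, in the 250 bases before the start, as did 2.98% of 32851 such windows in the genome. The stretches are shown because the genes that hold the core share it in different places. Oasl1, the gene with the largest change, does not hold it in this window. Nor does Oasl2, whose window is not printed. The stretches read 5′ to 3′ along the gene and end 1 base before the start, and capitals mark each match of this core or its reverse complement. Their positions are chr5:120907526-120907775, chr5:120887614-120887863, chr5:120812515-120812634 and chr5:120777660-120777909 on the minus strand and chr5:114922990-114923239 on the plus strand. For Oas1c only the 120 bases next to the start are printed, because an annotated exon of another gene lies beyond them.
Oas1a: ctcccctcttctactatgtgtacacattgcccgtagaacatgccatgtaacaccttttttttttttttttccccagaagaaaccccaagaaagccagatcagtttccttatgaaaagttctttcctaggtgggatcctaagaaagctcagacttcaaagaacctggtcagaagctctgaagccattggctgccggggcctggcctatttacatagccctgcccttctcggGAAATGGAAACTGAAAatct
Oas1g: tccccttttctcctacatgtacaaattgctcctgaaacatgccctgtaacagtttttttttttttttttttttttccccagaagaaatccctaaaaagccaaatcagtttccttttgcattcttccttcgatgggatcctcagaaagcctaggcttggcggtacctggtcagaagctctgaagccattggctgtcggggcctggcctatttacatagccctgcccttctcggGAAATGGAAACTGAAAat
Oas1c: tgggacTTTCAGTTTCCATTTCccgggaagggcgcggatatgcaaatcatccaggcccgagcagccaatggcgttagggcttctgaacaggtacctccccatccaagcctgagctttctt
Oas3: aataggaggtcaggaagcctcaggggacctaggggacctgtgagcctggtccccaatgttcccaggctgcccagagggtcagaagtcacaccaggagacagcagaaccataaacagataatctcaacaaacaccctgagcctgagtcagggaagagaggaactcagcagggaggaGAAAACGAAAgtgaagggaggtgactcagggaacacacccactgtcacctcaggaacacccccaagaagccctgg
Oasl1: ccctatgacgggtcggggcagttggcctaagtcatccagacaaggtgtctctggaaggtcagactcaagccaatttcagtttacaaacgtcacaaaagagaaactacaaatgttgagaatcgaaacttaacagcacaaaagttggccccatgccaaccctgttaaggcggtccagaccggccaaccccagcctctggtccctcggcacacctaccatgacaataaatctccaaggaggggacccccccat

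In Oas1a and Oas1g the capitals are 2 overlapping matches that end 5 and 3 bases before the start. The promoter windows of these genes were 84.8% identical (212 of 250 bases), against 46.8% to 54.8% for all other pairs. Oas1c held the same letters on the opposite strand, 99 to 114 bases before its start. They also lie close to the exon of another gene, and which gene they serve was not tested. Oas3 held 1 match 66 to 75 bases before its start. A kappa B type sequence, GGG, any 2 bases and TTTCC, was in 0 of the 6 windows and in 1.41% of all windows. The gamma-activated sequence TTCNNNGAA was in the window of Oas1a alone, against 7.02% of all windows, and TATAAA was in that of Oasl2 alone, against 12.4%. Each was searched on both strands. A match is a run of letters and not a measured binding site, and the absence of one says only that these letters are not in this window.

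All 7 genes lie on chromosome 5 in 2 places 5.79 Mb apart (GRCm38). Oasl2 and Oasl1 occupy 41.0 kb and are read from the plus strand, and the 5 Oas genes occupy 177.2 kb and are read from the minus strand. Coordinates and exon lengths in the table were those of GENCODE M21 for all 7. The close copies Oas1a and Oas1g limit what their separate values can show: of the different 50-base windows in the transcripts of Oas1a, 57.57% also occurred in Oas1g, and of those of Oas1g 45.72% occurred in another OAS gene. The share was 9.82% for Oas1c and 0 for Oas2, Oas3, Oasl1 and Oasl2. How reads that match more than 1 gene were treated, and how long the reads were, is not given in the sources used here. The split between Oas1a and Oas1g is therefore uncertain. Oas1c and Oasl1 share 227 and 38 exon bases with antisense genes on the other strand, and without a stated strand setting such reads cannot be assigned.

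All members were higher with PLG. Limma on log2(FPKM + 1) was fitted over all 9997 genes that reached 1 FPKM in at least 5 samples. In this fit 7 of 7 members rose at a Benjamini-Hochberg adjusted p under 0.05. Of the 7, 5 were at 1 FPKM or more in every sample, while Oas1c and Oasl1 passed this filter mainly through the PLG samples. Of all genes tested 29.1% passed as higher and 31.3% as lower (60.4% in all), and the balance depended on the scaling: 2555 higher and 2182 lower with a common sum, 3210 and 2916 with median of ratios, and 2705 and 3526 with quantile normalization, against 2914 and 3126 as deposited. By a log2 fold change of at least 1, 6 of 7 rose, against 8.35% of all genes tested. The 5 PLG samples lay above the 5 untreated samples without overlap in 6 of 7, the exception being Oas1c, against 22.7% of all genes tested. The median log2 fold change of the 7 was 2.05, that of all genes tested -0.02. The summed FPKM of the 7 genes went from 50.3 ± 4.13 (SD, n = 5) in untreated samples to 328 ± 15.5 (n = 5) with PLG, a ratio of 6.52. In bulk RNA, more cells that express a gene and more RNA per cell cannot be told apart, and the same holds for fewer cells and less RNA where a gene fell.

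**Figure D1:**
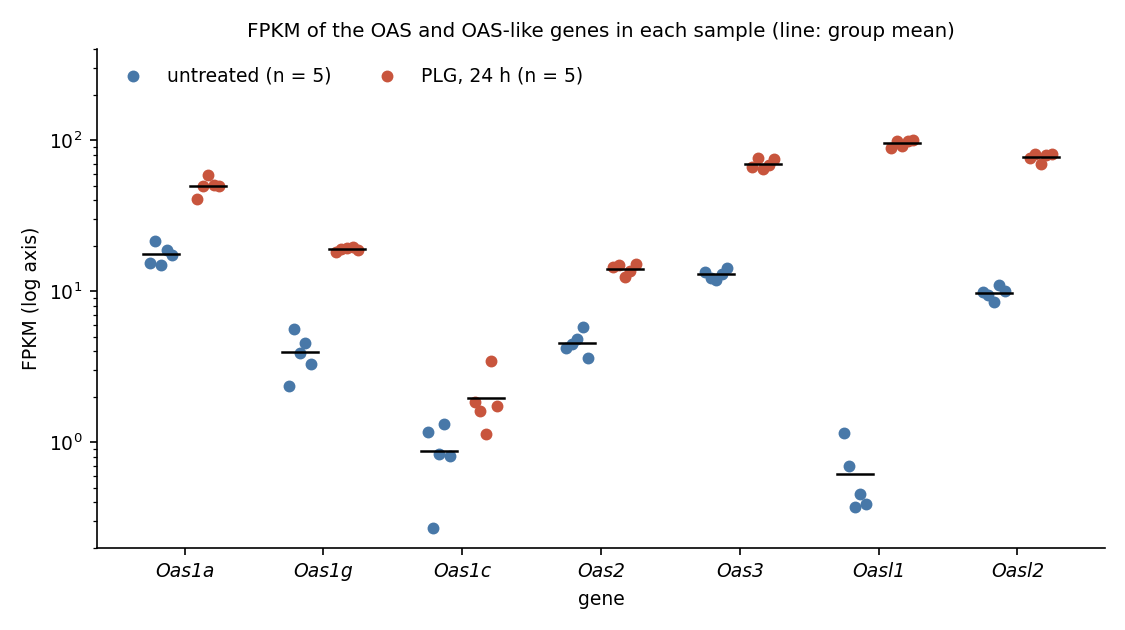
FPKM (log axis) of each OAS and OAS-like gene in the 5 untreated (blue) and 5 PLG (red) samples, 1 point per sample, with a line at the group mean. The groups are separate for every gene drawn except Oas1c. Oasl1 crosses from the lowest group mean of the genes drawn to the highest, with untreated samples that overlap those of Oas1c.

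Among the single-unit synthetase genes, Oas1a (ENSMUSG00000052776.10, chromosome 5, 120896256 to 120907521) was the most abundant member before treatment, by FPKM as deposited. Untreated samples 1 to 5 were at 15.3, 21.5, 15, 18.6 and 17.4 FPKM, and PLG samples 1 to 5 at 40.8, 49.9, 58.7, 50.6 and 49.4 FPKM. Untreated 2 was the highest untreated sample and still lay well below the lowest with PLG, PLG 1. On average 17.6 ± 2.66 FPKM without PLG stood against 49.9 ± 6.33 FPKM with it (n = 5 each). The limma log2 fold change of 1.46 had an SE of 0.103 (adjusted p = 2.99e-08).

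Oas1g (ENSMUSG00000066861.14, chromosome 5, 120876142 to 120887613), the near copy of Oas1a, started lower and moved further on this scale. It was at 2.37, 5.65, 3.9, 4.53 and 3.27 FPKM in untreated samples 1 to 5 and at 18.2, 19.1, 19.4, 19.8 and 18.6 FPKM in PLG samples 1 to 5. The untreated samples were spread over more than a 2-fold range, whereas the PLG samples were nearly level, with coefficients of variation of 31.5% and 3.23%. Its mean was 19.0 ± 0.614 FPKM with PLG against 3.95 ± 1.24 FPKM without it (n = 5 each). In limma the log2 fold change was 2.05 with an SE of 0.14 (adjusted p = 2.1e-08). Within a sample, the ratio of Oas1a to Oas1g was 3.8 to 6.44 in untreated samples and 2.24 to 3.02 with PLG, without overlap. Taken as a sum, Oas1a and Oas1g went from 21.5 ± 3.77 to 68.9 ± 6.79 FPKM, a ratio of 3.2. If each read that matches both was counted once, the sum depends on their division only through gene length. If such reads were left out or counted more than once, the sum is uncertain too. Which of these held is not known.

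Oas1c (ENSMUSG00000001166.17, chromosome 5, 120800194 to 120812514), another Oas1 copy, had the smallest log2 fold change of the 7 and, with PLG, the lowest level. Untreated samples 1 to 5 were at 1.17, 0.269, 0.832, 1.31 and 0.809 FPKM, resting on 21 to 120 reads, and PLG samples 1 to 5 at 1.85, 1.60, 1.13, 3.47 and 1.74 FPKM, resting on 103 to 367 reads. PLG 3 lay below untreated 1 and untreated 4, so the groups overlapped, and PLG 4 stood highest. All PLG samples but only untreated 1 and untreated 4 reached 1 FPKM, so the gene passed the filter mainly through the PLG samples. On average 0.879 ± 0.405 FPKM without PLG stood against 1.96 ± 0.886 FPKM with it (n = 5 each). The limma log2 fold change of 0.64 had an SE of 0.195 (adjusted p = 0.012, exact two-sided permutation p = 0.0238). Its size depended on the scale: it was 0.24 with a pseudocount of 5 and 1.21 with voom on recovered reads. The PLG value rested in part on PLG 4, without which the log2 fold change was 0.48 (limma adjusted p = 0.026). The untreated value rested in part on untreated 2, with 21 reads, without which the log2 fold change was 0.51 (limma adjusted p = 0.0263).

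For the other 6 genes, where the groups did not overlap, the exact two-sided permutation test gave p = 0.00794 each, the smallest that 252 assignments of 5 and 5 samples can give. Of the paralogs outside the members, Oas1d held 0 reads over the untreated libraries, which allows up to 3, and 23 over the PLG libraries, in 2 of them. Oas1h held 9 reads over the untreated and 55 over the PLG libraries. Neither reached 1 FPKM in any sample, and neither passed in the fit without the filter (limma adjusted p = 0.321 and 0.296).

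The genes of the larger synthetases, which are built of repeated OAS units, lie side by side. Oas3 (ENSMUSG00000032661.9, chromosome 5, 120753098 to 120777661) was at 13.4, 12.2, 11.9, 13.1 and 14.3 FPKM in untreated samples 1 to 5 and at 66.2, 75.7, 64.0, 68.5 and 74.9 FPKM in PLG samples 1 to 5. Replicates were close, with coefficients of variation of 7.32% and 7.45%. Its mean was 69.8 ± 5.2 FPKM with PLG against 13 ± 0.95 FPKM without it (n = 5 each). In limma the log2 fold change was 2.34 with an SE of 0.0629 (adjusted p = 1.99e-12).

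Oas2 (ENSMUSG00000032690.16, chromosome 5, 120730333 to 120749853) was the less abundant of the pair. It was at 4.19, 4.47, 4.84, 5.78 and 3.6 FPKM in untreated samples 1 to 5 and at 14.4, 14.9, 12.3, 13.5 and 15.2 FPKM in PLG samples 1 to 5. PLG 3 was the lowest PLG sample for Oas2 as it was for Oas3 and Oasl2, and all PLG samples exceeded all untreated ones. On average 4.58 ± 0.814 FPKM without PLG stood against 14.1 ± 1.15 FPKM with it (n = 5 each). The limma log2 fold change of 1.44 had an SE of 0.0973 (adjusted p = 1.8e-08). The ratio of Oas3 to Oas2 within a sample was 2.26 to 3.97 in untreated samples and 4.58 to 5.19 with PLG.

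The OAS-like genes had the largest log2 fold changes of the 7. Oasl1 (ENSMUSG00000041827.15, chromosome 5, 114923240 to 114937915) encodes a protein that lacks synthetase activity and is known in mice to hold back translation of the Irf7 messenger RNA. It was at 1.16, 0.698, 0.373, 0.456 and 0.392 FPKM in untreated samples 1 to 5, resting on 35 to 128 reads, and at 88.2, 98.7, 92.0, 98.5 and 101 FPKM in PLG samples 1 to 5, resting on 9065 to 18636 reads. Only untreated 1 of the untreated samples reached 1 FPKM, so the gene passed the filter on low values mainly through the PLG samples. Means of 0.615 ± 0.329 and 95.7 ± 5.38 FPKM (n = 5 each) gave a ratio of 156. In limma the log2 fold change was 5.92 with an SE of 0.11 (adjusted p = 6.6e-14), which ranked 10 among the 9997 genes tested, and the added 1 holds this value below the plain ratio.

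Oasl2 (ENSMUSG00000029561.17, chromosome 5, 114896936 to 114912234), whose product keeps synthetase activity, was already well expressed in untreated samples. It was at 9.90, 9.49, 8.42, 10.9 and 10.1 FPKM in untreated samples 1 to 5 and at 76.6, 80.7, 69.7, 79.5 and 80.8 FPKM in PLG samples 1 to 5. PLG 3 was the lowest with PLG and lay far above untreated 4, the highest without it. Its mean was 77.5 ± 4.65 FPKM with PLG against 9.76 ± 0.918 FPKM without it (n = 5 each). In limma the log2 fold change was 2.87 with an SE of 0.0658 (adjusted p = 4.55e-13). The ratio of Oasl1 to Oasl2 within a sample was 0.039 to 0.117 in untreated samples and 1.15 to 1.32 with PLG, without overlap.

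**Figure D2:**
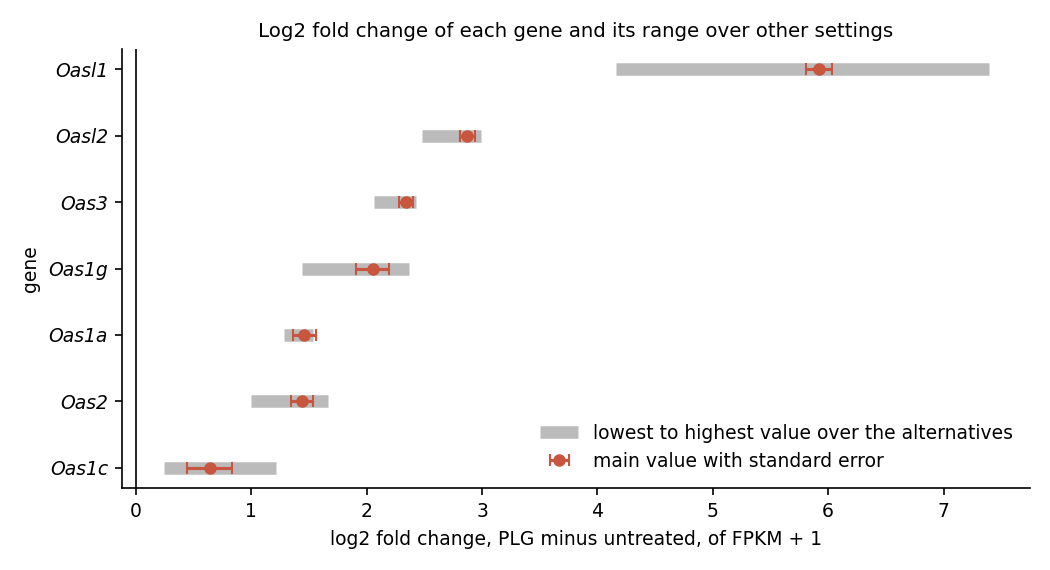
Log2 fold change of FPKM + 1, PLG minus untreated, of each gene (red point, with its limma standard error) and the lowest to highest value over the alternative settings (grey bar). All values lie above 0, from 0.24 for the lowest of Oas1c to 7.39 for the highest of Oasl1.

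The order of the levels was different in the groups. In untreated samples it ran, by mean FPKM, from Oas1a over Oas3, Oasl2, Oas2, Oas1g and Oas1c to Oasl1. With PLG it ran from Oasl1 over Oasl2, Oas3, Oas1a, Oas1g and Oas2 to Oas1c. The places of Oas1a and Oas1g hold for FPKM as deposited only, since how reads that match both were counted is not known. Neighbours in these orders had ranges that did not overlap, with these exceptions: Oas2 with Oas1g and Oas1c with Oasl1 in untreated samples, where the order held in 4 of 5 libraries each, and Oasl2 with Oas3 with PLG, where it held in 5 of 5.

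As a share of the summed FPKM of the 7 genes, Oasl1 went from 1.23% ± 0.702 to 29.2% ± 0.344 (SD, n = 5 each). Oas1a went from 34.8% ± 2.89 to 15.2% ± 1.95, although its own level was higher with PLG. Oas3 and Oasl2 each held a sizeable part in both groups, Oas3 25.9% ± 2.7 and 21.3% ± 0.894, Oasl2 19.4% ± 1.36 and 23.6% ± 1.08. The shares are descriptions and were not tested. They also depend on how reads that match both Oas1a and Oas1g were counted, which is not known.

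**Figure D3:**
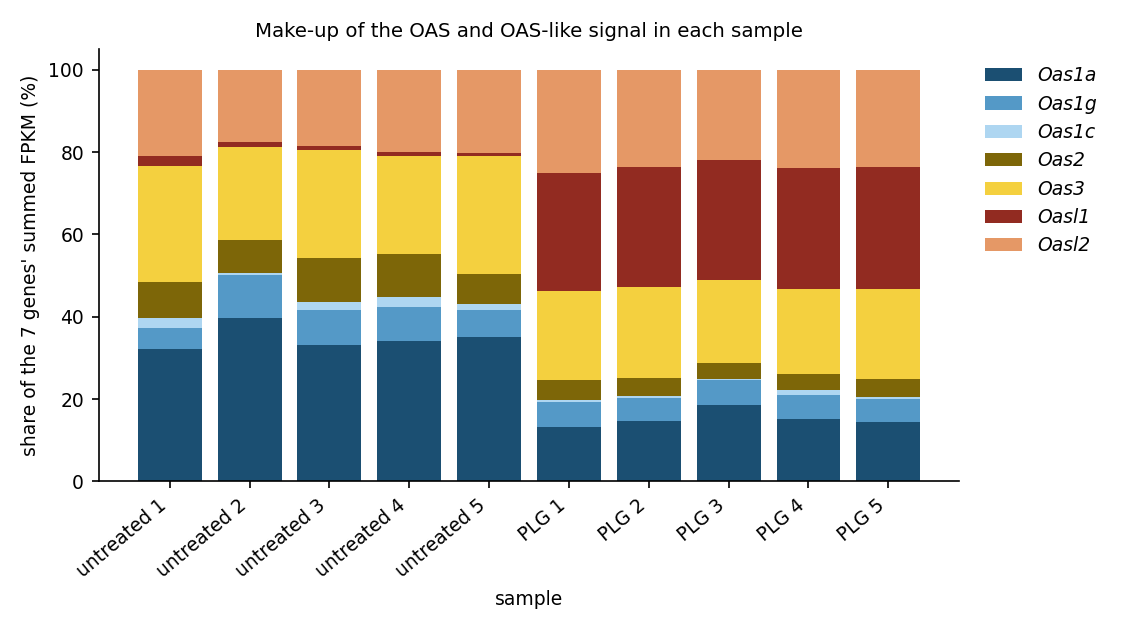
Share (%) of each gene in the summed FPKM of the 7 OAS and OAS-like genes, 1 bar per sample. Oasl1 is a thin band of 0.786% to 2.43% in the untreated samples and 28.8% to 29.6% in the PLG samples.

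The 3 tested genes of 2-5A turnover and related steps that are reported here fell (median log2 fold change -0.33). Among all genes tested, 31.3% passed as lower. Abce1, a factor of ribosome recycling, fell from 16.1 ± 1.44 to 12.9 ± 0.656 FPKM (log2 fold change -0.3, limma adjusted p = 0.0015), and lost the call with scaling to a common sum (-0.25, limma adjusted p = 0.0861). Pde12 and Akap7, which encode enzymes able to degrade 2-5A, also fell. Pde12 had 2.96 ± 0.287 FPKM with PLG against 3.99 ± 0.296 FPKM without it (log2 fold change -0.33), and Akap7, whose groups overlapped, 1.23 ± 0.371 against 2.12 ± 0.343 FPKM (log2 fold change -0.5). Enpp1, another phosphodiesterase able to cut 2-5A, lay under the filter and went from 0.775 ± 0.236 to 0.0384 ± 0.0387 FPKM, with 1436 reads over the untreated and 98 over the PLG libraries (without the filter, log2 fold change -0.76, limma adjusted p = 3.21e-05).

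Other sensors of double-stranded RNA mostly rose. Of 8 tested genes for sensors and their adaptor 7 rose and 1 fell, against 29.1% and 31.3% of all genes tested. The median log2 fold change of the 8 was 1.36. Zbp1, a sensor of left-handed nucleic acid, rose from 4.92 ± 1.02 to 44.1 ± 3.21 FPKM (log2 fold change 2.94). The helicase genes Dhx58, Ifih1 and Ddx58 rose by 2.06, 1.66 and 1.62 on the log2 scale. Mavs, the adaptor of Ifih1 and Ddx58, was the 1 that fell, from 17.5 ± 2.01 to 11.5 ± 1.08 FPKM (log2 fold change -0.56, limma adjusted p = 3.86e-05).

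Cgas, whose product is a structural relative of the OAS enzymes that senses DNA, had 4.77 ± 0.746 FPKM with PLG against 3.54 ± 1.11 FPKM without it, with groups that overlapped (log2 fold change 0.37, limma adjusted p = 0.0422). That call was lost in 10 of 21 alternatives, among them without untreated 1, 3, 4 or 5 or PLG 1, 4 or 5, with adjusted p of 0.0902, 0.105, 0.0534, 0.0865, 0.0702, 0.103 and 0.0884 in limma. Its adaptor gene Tmem173 fell from 31.3 ± 2.93 to 25.2 ± 1.9 FPKM (log2 fold change -0.3, limma adjusted p = 0.0023), and lost the call with scaling to a common sum (-0.25, limma adjusted p = 0.0606).

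Genes of the interferon receptor and its signalling rose in 6 of the 7 tested cases reported here, against 29.1% of all genes tested. Their median log2 fold change was 0.68, and none fell on the values as deposited, against 31.3% of all genes tested. Among factors that act on the response element, Stat2 rose from 22.5 ± 0.983 to 65.9 ± 2.75 FPKM and Irf9 from 8.42 ± 1.23 to 18.6 ± 0.845 FPKM. Usp18, a brake on the receptor, rose by 2.44 on the log2 scale, and Tyk2, a kinase of the receptor, by 0.59. Jak1, the partner kinase, had 52.0 ± 0.335 FPKM with PLG against 51.0 ± 2.47 FPKM without it, a difference that did not pass (limma adjusted p = 0.564). With quantile normalization Jak1 fell by 0.13 on the log2 scale and passed (limma adjusted p = 0.0145).

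Of the 6 interferon regulatory factors listed, 4 rose and 2 fell, against 29.1% and 31.3% of all genes tested. Their median log2 fold change was 0.53. Irf7, the target of Oasl1, rose to 158 ± 7.98 FPKM from 4.5 ± 1.26 FPKM, or by 4.88 on the log2 scale (SE 0.121, limma adjusted p = 9.54e-13). Irf8 and Irf1 rose by 2.11 and 0.92 on the log2 scale. Irf2, which can repress interferon-stimulated genes, fell from 9.99 ± 1.05 to 8.45 ± 0.343 FPKM (log2 fold change -0.21, limma adjusted p = 0.0193). The call of Irf2 was lost with scaling to a common sum (-0.17, limma adjusted p = 0.291) and without the 3 libraries described below (-0.19, limma adjusted p = 0.0599). The other gene that fell, Irf3, and the fourth that rose, Irf5, were near the threshold, with groups that overlapped (log2 fold changes -0.16 and 0.14, limma adjusted p = 0.0434 and 0.045).

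Interferon genes held few reads at this time point. Ifnb1, the interferon beta gene, and Ifng, the interferon gamma gene, held 0 reads over the untreated libraries, which allows up to 3, and 13 and 11 over the PLG libraries, each in 2 of 5. Neither passed in the fit without the filter (limma adjusted p = 0.224 and 0.249). The levels before 24 h were not measured, and interferon alpha genes were not analysed here. The lists of this and the previous paragraphs hold 26 tested genes reported here, of which 18 rose and 7 fell, with a median of 0.64. Among all genes tested 29.1% passed as higher and 31.3% as lower.

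**Figure D4:**
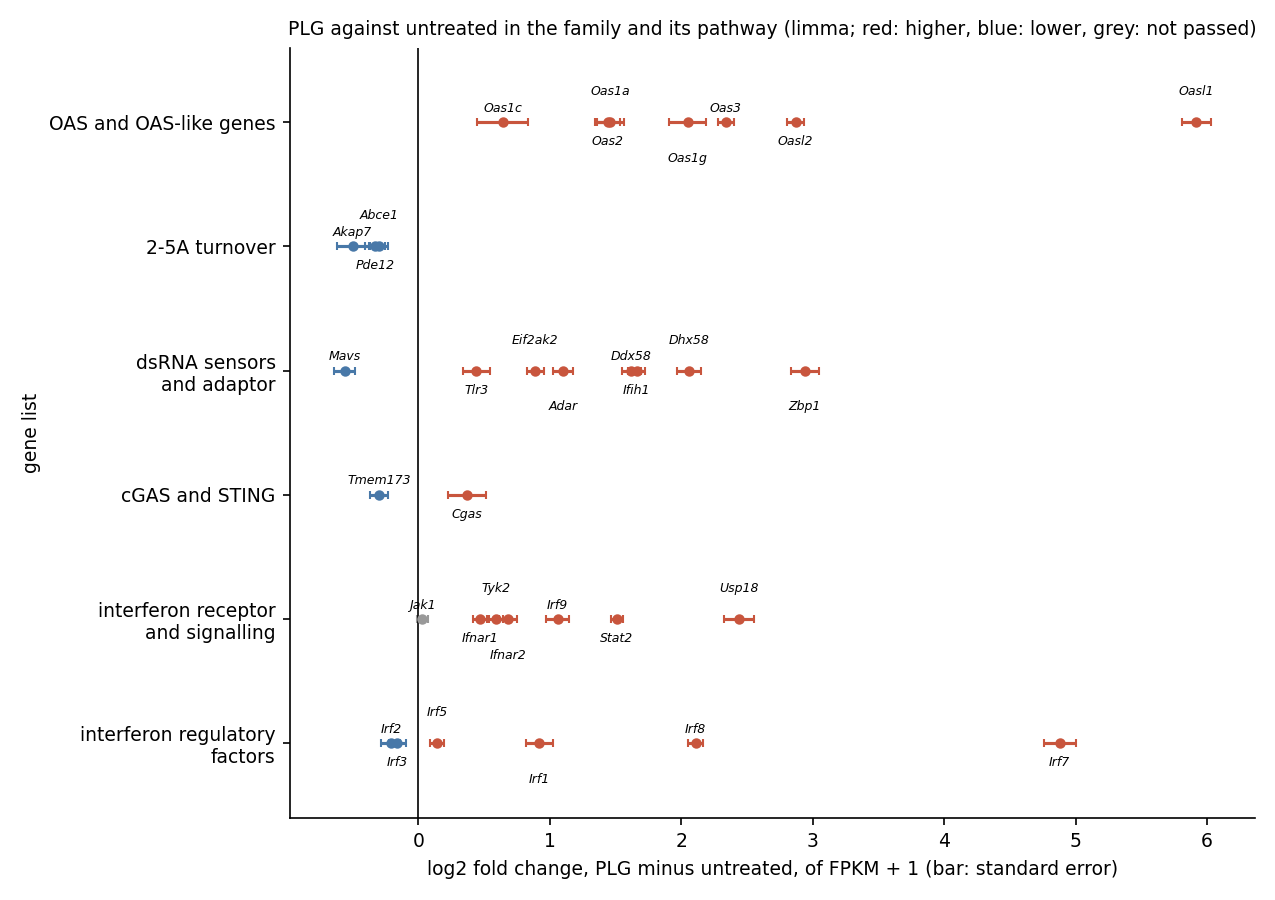
Log2 fold change of FPKM + 1, PLG minus untreated, with its standard error, for the 7 members and the 26 tested genes of the pathway lists, 1 row per list. Red points passed as higher, blue as lower, and the grey point, Jak1, did not pass; Irf7 at 4.88 lies nearest to Oasl1 at 5.92.

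Genes around the family on chromosome 5 passed in both directions. Of all genes tested, 29.1% passed as higher and 31.3% as lower. Within 500 kb of Oasl1 or Oasl2, 22 other genes were tested, of which 1 rose and 10 fell, with log2 fold changes of -0.79 to 0.42 and a median of -0.18. Around the 5 Oas genes 10 others were tested, of which 2 rose and 3 fell, with log2 fold changes of -1.58 to 0.78 and a median of -0.06. The nearest tested genes on either side of Oasl2 and Oasl1 were Ankrd13a (-0.24), 1500011B03Rik (0.42), 2210016L21Rik (0.10) and Sppl3 (0.07), of which the first passed as lower and the second as higher. Those beside the Oas genes, Rita1 (-0.08), Ddx54 (-0.06), Ptpn11 (0.03) and Rpl6 (-0.03), did not pass. They lie 102 to 297 kb from the nearest member, and closer neighbours lay under the filter. In the fit without the filter, Rasal1 at 50.7 kb passed as lower (log2 fold change -0.55, limma adjusted p = 0.00144). Rph3a at 33.0 kb passed as higher (0.15, limma adjusted p = 0.0359), with groups that overlapped. Dtx1 at 18.4 kb did not pass (limma adjusted p = 0.195).

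**Figure D5:**
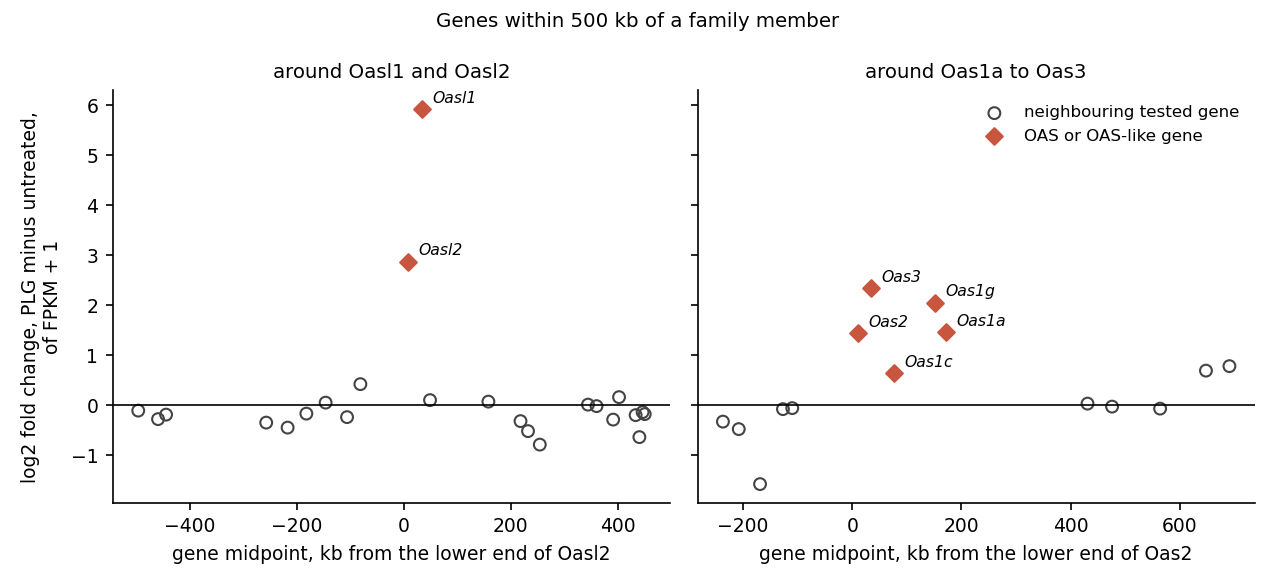
Log2 fold change of FPKM + 1, PLG minus untreated, of the tested genes within 500 kb of a member, against the distance of the gene's midpoint in kb from the lower end of Oasl2 (left) or Oas2 (right). Diamonds are members, at 0.64 to 5.92; open circles are neighbouring genes, at -1.58 to 0.78.

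Genes with the most similar course over the 10 samples were found by the root mean square difference between profiles of log2(FPKM + 1), each centred on its own mean. Since the 10 samples form 2 groups, likeness here means mainly a change of the same size on this scale. For Oasl1 the nearest were Susd2 and Nos2, the inducible nitric oxide synthase (0.197 and 0.258, against a median of 2.98 over 9805 genes). For Oasl2 they were Clmp and Slc25a37 (0.096 and 0.119), and for Oas3 Slamf1 and Cav1 (0.089 and 0.104). Oas1g was nearest to Tmem176a and Mmp2 (0.117 and 0.144), Oas1a to H2-K1 among those reported here (0.119), Oas2 to Grina and Tbc1d8 (0.111 and 0.121) and Oas1c to Ngdn and Ms4a14 (0.232 and 0.235). None of these 13 genes was another member of the family, and none lies on chromosome 5.

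Reads on the genes of the table, recovered from the steps of low FPKM values, numbered 28426103 to 64214553 per sample. The cells carried macrophage markers throughout: all 8 listed were tested. Of these 1, Adgre1, rose and 6 fell, against 29.1% and 31.3% of all genes tested. Summed, they were at 5890 to 7400 FPKM in untreated samples and 2570 to 2780 FPKM with PLG, of which Lyz2 made up most. The dendritic cell markers Flt3, Zbtb46 and Dpp4 rose, while Itgax, Clec9a and Cd209a fell, and the 7 markers summed to 274 to 303 FPKM in untreated samples and 168 to 185 FPKM with PLG. Markers of plasmacytoid dendritic cells, known for high interferon output, summed to 1.66 to 3.03 FPKM and 4.92 to 6.76 FPKM, and the 2 that were tested, Cox6a2 and Tcf4, rose (0.442 to 2.94 FPKM and 1.63 to 2.53 FPKM). Their defining marker Siglech, under the filter, held 82 reads over the untreated and 3 over the PLG libraries. None of the listed T and NK cell, B cell or fibroblast markers passed the filter, and each of these lists summed to at most 1.16 FPKM in any sample. Neutrophil markers summed to 8.04 to 18.1 FPKM in untreated samples and 15.5 to 23.8 FPKM with PLG, those of mast cells and basophils to 0.712 to 3.9 FPKM and 1.94 to 3.7 FPKM, and the 2 erythroid markers in the table to at most 0.262 and 1.04 FPKM. The part of these shifts in the OAS values was not tested. Untreated 2, PLG 3 and PLG 4 stood apart with 1339 to 8221 FPKM of the most abundant gene model, Gm10800, against 22218 to 59685 FPKM in the other libraries. Without these 3 libraries all 7 members still passed, with log2 fold changes from 0.43 for Oas1c (limma adjusted p = 0.0106) to 5.95 for Oasl1.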

How the data were processed

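Total RNA of mouse bone marrow macrophages was sequenced in 5 untreated and 5 PLG samples. The authors deposited 1 table of FPKM per protein-coding gene. Per the submitters' processing notes, which give no role or order, STAR 2.7.3a, featureCounts 2.0.0, cutadapt 2.10, FastQC 0.11.9, DESeq2 1.24.0 and the build GRCm38.p6 were used. Groups came from the sample labels. Each sample's depth was fitted so that the steps of low FPKM values gave whole reads, which held in 100% of the values checked (tolerance 0.1 read). Whole multiples of a depth would give this too. With the fitted depth divided by 2, 46.9% to 51.7% of values were whole, so it was not divided further. The main test was limma 3.58.1 (R 4.3.3) with an intensity trend on log2(FPKM + 1), with treatment as the only term, for genes at 1 FPKM or more in at least 5 samples, with Benjamini-Hochberg adjustment at 0.05. A fold change on this scale understates that of low genes. Values of genes below the filter come from an unfiltered fit. Exact permutation tests were two-sided. The fitting script was tested on simulated data. Named were all members; per pathway list up to 4 genes with the smallest limma p and the most abundant genes, at most 2, that did not pass; the 2 nearest profiles per member, leaving out gene models; and the 2 nearest tested neighbours on each side of each gene cluster. Genes under the filter, Mavs, Irf3, Irf5 and the cell type markers were named after their values were seen. The members and lists were chosen with earlier results of these data known. Alternatives were other pseudocounts, filters, scalings and fits, voom on recovered reads, a replicate block and leaving out samples. Oas1b was not analysed here, and some listed or similar genes are not reported here and are left out of the list counts.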

Additional observations from a re-analysis of the deposited data

Results flagged for a closer look

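Among 25 genes, each tested in both groups of 5 samples (50 groups in all), 1 sample stood far from the others of its group. Tyk2, a kinase of the interferon receptor, was at 20.8 FPKM in untreated 2, while the other untreated samples were at 23.6 to 24.4 FPKM. The gap to the nearest sample was 0.79 of the group's range, above Dixon's critical value of 0.71 for 5 samples. Chance flags about 1 in 20 groups. No value of an OAS or OAS-like gene was flagged in this way.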

How the results depend on the processing

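Over 22 alternatives, 153 of 153 values for the 7 members kept their direction and stayed past the adjusted p of 0.05. All 7 were called under every alternative except a filter of 5 FPKM, where Oas1c was not tested and 6 were called. Log2 fold changes ranged over 1.28 to 1.53 for Oas1a, 1.44 to 2.37 for Oas1g, 1 to 1.66 for Oas2, 2.06 to 2.43 for Oas3, 4.16 to 7.39 for Oasl1, 2.48 to 2.99 for Oasl2 and 0.24 to 1.21 for Oas1c, whose limma adjusted p ranged from 0.00321 to 0.0364. Over all alternatives 2185 to 3360 genes were called higher and 2133 to 3526 lower, and with 1 sample left out 2701 to 2978 higher and 2936 to 3133 lower. With the replicate block, 7 members, 2797 genes higher and 2988 lower were called, and Oas1c had a limma adjusted p of 0.00321. The labels tie samples across the groups by a number alone. Same-numbered samples correlated at -0.121 to 0.099 in their deviations from the group means, and the 20 other pairs at -0.124 to 0.175. Of 10 samples, 2 correlated best with their own number. These correlations cannot show whether same-numbered samples share a mouse or a culture. Of the pathway genes, Jak1 changed direction with quantile normalization, to -0.13 (limma adjusted p = 0.0145), and the cause was not tested. Leaving out together the 3 libraries lowest in Gm10800 was chosen after seeing the data. The precision of Oas1c, and of Oasl1 in untreated samples, is limited by reads, at 21 to 120 and 35 to 128 per untreated library.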
